A study of Mus musculus with 10 samples.

Results

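Pluripotent cells of the mouse hold a set of transcription factors that keep them in the naive state, the ground state of the inner cell mass. Here 9 of these factors were followed while fibroblasts were reprogrammed: Nanog, Esrrb, Tfcp2l1, Prdm14, Zfp42, Nr0b1, Nr5a2, Sall4 and Gbx2. They were chosen by name, as factors known for this state that are not encoded by the reprogramming cassette, and make up 9 of the 45706 genes in the deposited tables. All 9 passed the filter on low counts, some of them only through their later groups.

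RNA was measured in 10 libraries, 2 in each of 5 groups, and every group is labelled with a C57BL/6 x 129 background. The MEF group was unsorted embryonic fibroblasts with the genotype OKSM Col1a1/M2rtTA ROSA26, in which a single cassette encodes Oct4, Klf4, Sox2 and Myc and answers to the transactivator M2rtTA when doxycycline is given. These fibroblasts were kept in MEF medium with no doxycycline. The day 3, day 6 and day 9 groups had the same genotype and were grown in ESC medium with 1 µg/ml doxycycline and 50 µg/ml ascorbic acid for 3, 6 and 9 days. Day 3 cells were unsorted. Both later groups were selected by sorting for SSEA1, a carbohydrate epitope found on pluripotent cells. The ESC group was the single line V6.5, without the cassette, unsorted and grown with LIF on irradiated feeder cells. The step from MEF to day 3 therefore joins doxycycline, ascorbic acid and medium, the step from day 3 to day 6 joins time and sorting, and the step from day 9 to ESC joins cell origin, doxycycline, ascorbic acid, sorting and, as far as the labels tell, feeder cells. Within each of these steps the parts cannot be told apart. In the step from MEF to day 3 and in that from day 9 to ESC, the libraries also differ in sex-linked genes, as given below. The labels do not say whether the 2 libraries of a group came from separate cultures, so a p-value here measures the spread between these samples, which may be technical.

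In the naive network, Oct4 and Sox2 bind DNA side by side, often at a composite site in which an octamer word stands next to a SOX word, and work together with Nanog. Esrrb, Tfcp2l1 and the Klf factors connect this core to signals from LIF and from GSK3 inhibition, so that several of them can stand in for each other in maintaining self-renewal. Zfp42, also called Rex1, is a classic reporter of the naive state, and Prdm14 limits FGF signalling and DNA methylation there.

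The genes lie apart from each other on 6 chromosomes, 4 of them on chromosome 1 (GENCODE M21, build GRCm38). The nuclear receptor genes are Esrrb at chr12:86361117-86521628 (plus strand), Nr5a2 at chr1:136842571-136960448 (minus strand) and Nr0b1 at chrX:86191764-86195947 (plus strand). The homeobox genes are Nanog at chr6:122707489-122714633 (plus strand) and Gbx2 at chr1:89927956-89931179 (minus strand). The zinc-finger genes are Zfp42 at chr8:43295063-43306980 (minus strand), Sall4 at chr2:168748332-168767943 (minus strand) and Prdm14 at chr1:13113457-13127163 (minus strand), and Tfcp2l1 lies at chr1:118627945-118685168 (plus strand).

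The sequences around the start sites of 4 factors are shown as examples. Nanog, Esrrb and Zfp42 were highest in ESC, as was every member but Nr5a2, which was highest at day 9. Windows run from 250 bases before to 50 bases after the RefSeq start, 5′ to 3′ on the gene's strand, in build GRCm38.p6. Capitals mark matches, on either strand, to 5 words: part of the octamer (ATGCAAA), a SOX word (ACAATG), a nuclear receptor word (AAGGTCA), a KLF word (GGGTGTGG) and a TATA word (TATAAA). The Nanog window lies at chr6:122707239-122707538 on the plus strand. The Esrrb window lies at chr12:86421394-86421693 on the plus strand, at the start that carried most Esrrb reads. The Zfp42 window lies at chr8:43306960-43307259 and the Nr5a2 window at chr1:136960399-136960698, both on the minus strand.
Nanog: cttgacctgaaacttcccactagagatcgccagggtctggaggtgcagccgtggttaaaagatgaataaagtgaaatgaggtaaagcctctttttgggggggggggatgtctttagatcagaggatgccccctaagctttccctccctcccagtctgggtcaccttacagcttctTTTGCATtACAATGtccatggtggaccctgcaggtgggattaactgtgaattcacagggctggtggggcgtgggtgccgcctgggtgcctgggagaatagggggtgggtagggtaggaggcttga
Esrrb: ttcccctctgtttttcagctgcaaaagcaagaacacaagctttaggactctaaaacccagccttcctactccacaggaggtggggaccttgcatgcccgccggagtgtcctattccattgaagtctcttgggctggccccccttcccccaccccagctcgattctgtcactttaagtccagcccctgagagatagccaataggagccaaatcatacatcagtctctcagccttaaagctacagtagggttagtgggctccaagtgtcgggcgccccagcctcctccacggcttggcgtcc
Zfp42: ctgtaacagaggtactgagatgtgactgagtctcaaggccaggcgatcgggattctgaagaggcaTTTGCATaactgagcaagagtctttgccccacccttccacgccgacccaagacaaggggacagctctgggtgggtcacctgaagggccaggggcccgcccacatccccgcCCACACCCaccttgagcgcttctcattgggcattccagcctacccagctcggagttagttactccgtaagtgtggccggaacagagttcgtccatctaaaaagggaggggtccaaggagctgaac
Nr5a2: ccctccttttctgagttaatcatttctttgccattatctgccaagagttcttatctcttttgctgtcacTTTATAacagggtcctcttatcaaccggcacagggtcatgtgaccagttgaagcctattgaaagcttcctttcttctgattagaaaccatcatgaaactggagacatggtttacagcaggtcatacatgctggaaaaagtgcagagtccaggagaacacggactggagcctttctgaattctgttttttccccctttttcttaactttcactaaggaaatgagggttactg

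The Nanog window held the octamer word on the opposite strand 75 bases before the start and the SOX word 67 bases before it, with 1 base between them. This adjacent pair, written TTTGCATNACAATG, was found in 2 of 32544 RefSeq windows of 300 bases. Both were windows of Nanog that overlap and hold the same site. The pair was searched in the order and spacing that the Nanog window holds, so its count is not a test of rarity. Zfp42 held the octamer word 185 bases before its start and the KLF word 75 bases before it, both on the opposite strand. No word was found in the Esrrb window, and the Nr5a2 window held only the TATA word, on the opposite strand and 181 bases before the start. Among the other members, the TATA word stood 28 bases before the start of Tfcp2l1 and 32 bases before that of Nr0b1, and Gbx2 held none of the words. Of all windows, 4.65% held the octamer word, 12.4% the SOX word, 4.71% the nuclear receptor word, 3.57% the KLF word and 13.6% the TATA word. The windows also differed in CpG content: Nr5a2 had 2 CpG dinucleotides, Nanog 4, Esrrb 7, Zfp42 11, Nr0b1 14, Tfcp2l1 21 and Gbx2 27, against a median of 7 over all windows. A match is a run of letters and not a measured binding site.

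Libraries held 29585876 to 38275024 estimated reads. Levels are given as TMM-scaled CPM, the reads of a gene as a share of the library, except where TPM, which also corrects for transcript length, is named. The summed level of 8 pluripotent markers, which include Nanog and the cassette genes Pou5f1 and Sox2, was 3.05 to 5.14 TPM in the MEF libraries and 3390 to 3420 TPM in the ESC libraries, and that of 12 fibroblast or feeder markers was 10600 to 11200 TPM in MEF, 655 to 686 at day 3, 112 to 118 at day 6, 86.1 to 93.5 at day 9, and 1390 to 1430 TPM in ESC, where feeder cells are part of the culture. At day 9, 1 of these 12 markers, Lum, was at 0 in both libraries. Xist, transcribed from the inactive X chromosome, was at 0.766 CPM in MEF, 1010, 1300 and 1080 CPM at days 3, 6 and 9, and 10.2 CPM in ESC, and the Y-linked gene Ddx3y was at 88.5, 0.0713, 0.164, 0.0987 and 26.5 CPM in the same order. The induced libraries thus differ from both the MEF and the ESC libraries in these sex-linked genes, and in comparisons with MEF or ESC this cannot be told apart from stage. In bulk samples, fewer cells with a transcript and less of it in each cell cannot be told apart either.

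None of the 9 factors was above 2.6 CPM in a MEF or day 3 library, and all 9 were higher at day 6. At day 6 they already differed widely, from 0.309 to 120% of their ESC level. By day 9, Nr5a2 stood above its ESC level, Tfcp2l1, Gbx2, Nr0b1 and Sall4 had reached 26.6 to 43.7% of theirs, and Zfp42 remained under 1% of its ESC level. The plot of levels by library shows these courses.

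**Figure D1:**
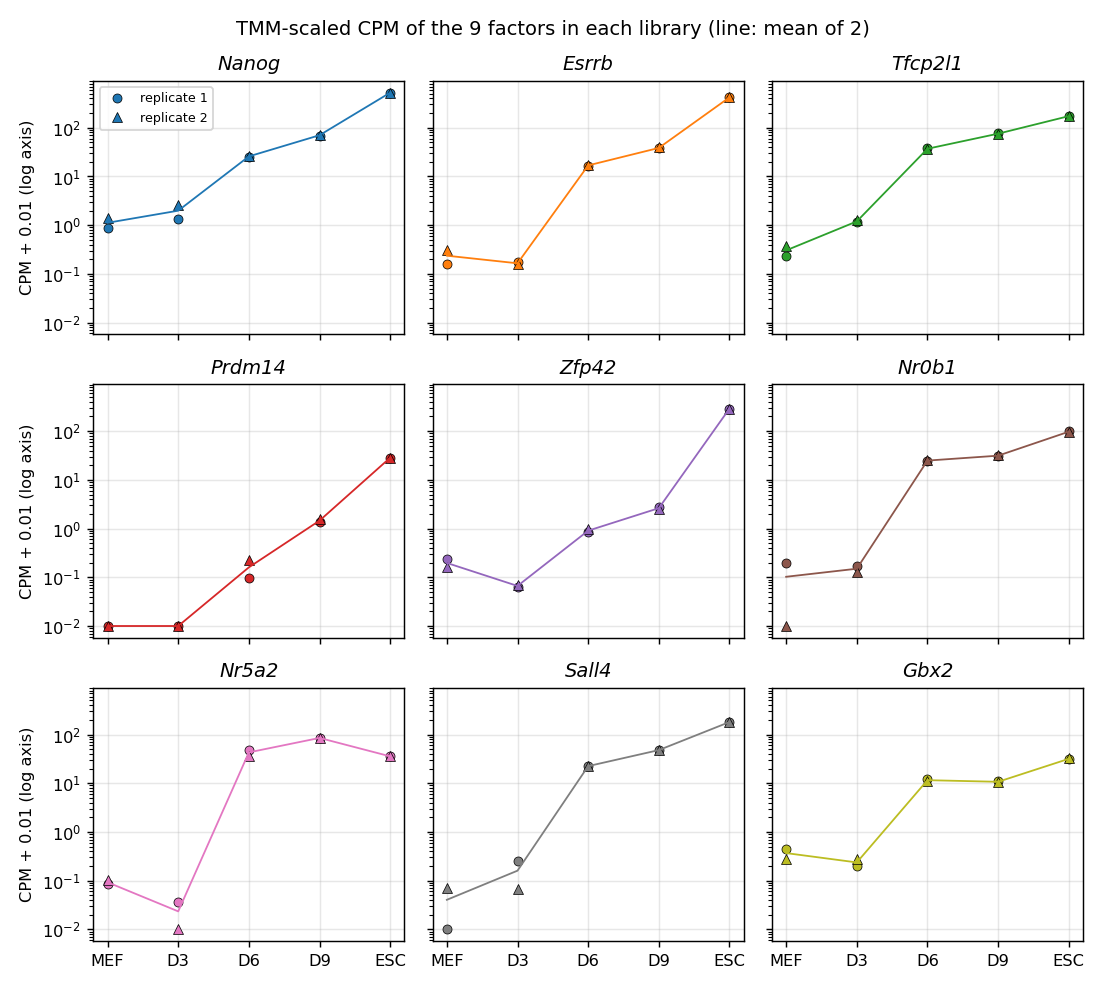
Level of each factor in each of the 10 libraries, in CPM plus 0.01 on a log axis, by group; circles are replicate 1, triangles replicate 2 and lines group means. All 9 factors are at 2.6 CPM or less in MEF and at day 3 (D3), and Nr5a2 is the panel in which day 9 stands above ESC.

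Nanog, a homeobox factor of the core network, was at 0.85 and 1.37 CPM in MEF and at 1.35 and 2.6 CPM at day 3. It was at 25 and 26.6 CPM at day 6, 69.2 and 71.2 at day 9, and 522 and 528 in ESC. The MEF and day 3 libraries overlapped, and every later group lay above the one before it. The log2 difference from the group before was 3.73 ± 0.14 (SE) for day 6, 1.45 ± 0.08 for day 9 and 2.90 ± 0.06 for ESC (edgeR, adjusted p = 2.2e-11, 4.1e-09 and 3.6e-14, 2 libraries per group). Nanog has processed pseudogenes, and 4.53% of its 50-base words also occur in other transcripts, first among them Nanog-ps1, at 16.5 CPM in ESC. From MEF to day 3 the Nanog difference was 0.78 ± 0.29, below the 2-fold minimum; it was 1.20 without MEF replicate 2 and also 1.20 without day 3 replicate 1, and was called in both cases.

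Esrrb, an orphan nuclear receptor, was at 0.148 and 0.305 CPM in MEF and 0.162 and 0.148 at day 3, or 4 to 10 reads a library. It was at 16.6 and 17.1 CPM at day 6, 37.5 and 39.5 at day 9, and 419 and 422 in ESC. MEF and day 3 overlapped, and the later groups did not. Esrrb was 6.73 ± 0.15 log2 units higher at day 6 than at day 3, rose by 1.20 ± 0.05 to day 9 and by 3.45 ± 0.04 to ESC (edgeR, adjusted p = 9.1e-14, 6.1e-10 and 8.9e-17).

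Nr5a2, a nuclear receptor also called Lrh1 that can bind the regulatory DNA of Pou5f1, had 2 and 3 reads in MEF and 1 and 0 reads at day 3. It was at 49.1 and 36.9 CPM at day 6, 86.3 and 83.9 at day 9, and 35.6 and 35.7 in ESC. Both day 9 libraries lay above both ESC libraries. At day 6 this held for replicate 1, at 137% of the ESC mean, whereas replicate 2 was at 103% in TMM-scaled CPM, 98.9% without TMM and 91.6% on the TPM scale. From day 3 to day 6 its reads rose 3060-fold, with a 95% counting interval of 549 to 121000 because day 3 had 1 read. It was lower in ESC than at day 9 by a log2 difference of -1.25 ± 0.09 (edgeR, adjusted p = 1.7e-08), and was the only member called lower in that step. In limma fits on TPM the same fall was -0.88 and -0.98 with a pseudocount of 1 and 0.1, under the 2-fold minimum. The day 9 to day 6 difference, 0.98 ± 0.09, missed the 2-fold minimum and was 1.20 without day 6 replicate 1 and 1.00 without day 9 replicate 2, past it in both cases; it was also past it with the filter of 10 CPM (1.02) and without TMM (1.00).

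Nr0b1, also called Dax1, is an X-linked orphan receptor that lacks the usual DNA-binding domain and interacts with Oct4 and Nr5a2. It had 5 and 0 reads in MEF and 6 and 4 at day 3, and was at 24.6 and 25.1 CPM at day 6, 30.4 and 32.3 at day 9, and 98.6 and 96.1 in ESC. MEF and day 3 overlapped, and from day 6 on each group lay above the one before it. It rose by 7.43 ± 0.20 to day 6 and by 1.63 ± 0.07 from day 9 to ESC (edgeR, adjusted p = 4.9e-13 and 3.3e-11). The step to day 9 was 0.34 ± 0.08 and under 2-fold. With 1 MEF library at 0, the day 3 to MEF difference of 0.73 ± 0.81 turned to -0.38 without MEF replicate 2 and was 5.33, and called, without MEF replicate 1. The Xist and Ddx3y levels above move with the groups in which this X-linked gene was compared, and their part in the result was not tested.

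Tfcp2l1, a grainyhead-family factor downstream of LIF, was at 0.222 and 0.366 CPM in MEF and 1.13 and 1.24 at day 3. It was at 38.3 and 35.8 CPM at day 6, 77.3 and 73.8 at day 9, and 174 and 172 in ESC. No groups overlapped, and Tfcp2l1 was the only member called higher in each of the 4 steps, by 1.96 ± 0.28, 4.96 ± 0.09, 1.03 ± 0.05 and 1.20 ± 0.04 log2 units (edgeR, adjusted p = 2.3e-05, 1.7e-14, 1.3e-09 and 8e-12). Of all tested genes, 9 were called higher in every step, 0.0446%. The day 9 step lay close to the minimum: it was 0.98 without day 6 replicate 2 and 0.99 without day 9 replicate 1, and then not called. In limma fits on TPM the first step was 0.06 and 0.48 with a pseudocount of 1 and 0.1, the day 9 step was 0.69 and 0.92, and neither was called.

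Sall4, a zinc-finger factor that partners with Oct4 and with the NuRD repressor complex, had 0 and 2 reads in MEF and 9 and 2 at day 3. It was at 22.5 and 22.4 CPM at day 6, 48.0 and 47.8 at day 9, and 178 and 183 in ESC. MEF and day 3 overlapped, and the later groups were apart. Sall4 rose by 7.15 ± 0.18, 1.09 ± 0.06 and 1.91 ± 0.05 log2 units in the last 3 steps (edgeR, adjusted p = 2.5e-13, 1.1e-08 and 5.3e-13). In limma fits on TPM the step to day 9 was 0.75 and 0.82 with a pseudocount of 1 and 0.1, and was not called. At day 3 it had 4.64 times the reads of MEF after scaling (95% counting interval 1.28 to 38.3, adjusted p = 0.053 by edgeR). That step passed the test without MEF replicate 2, where it was 5.44, without day 3 replicate 2, where it was 2.74, and under 3 other settings, where it was 2.02 to 2.28.

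Prdm14, a PR-domain zinc-finger factor, had 0 reads in all 4 MEF and day 3 libraries. A count of 0 allows up to 3 reads, which is 0.0758 to 0.111 CPM depending on the library. It had 3 and 7 reads at day 6 and 42 and 61 at day 9, which is 1.35 and 1.54 CPM, and was at 28.3 and 28.6 CPM in ESC. Each of these groups lay above the one before it. Set against 3 reads over the whole low group, Prdm14 was at least 3.53-fold higher at day 6 than at day 3 and at least 568-fold higher in ESC than in MEF. It rose by 3.25 ± 0.32 from day 6 to day 9 and by 4.29 ± 0.15 from day 9 to ESC (edgeR, adjusted p = 7.8e-06 and 9.9e-11). In primordial germ cells Prdm14 is also active, and the 7 germ cell markers summed to 1.06 to 1.07 TPM at day 3, 11.8 to 13 at day 6, 18.7 to 20.3 at day 9 and 47.1 to 53.4 TPM in ESC. From day 6 to day 9, 3 of the 7 were higher (Dppa3, Prdm1 and Kit), against 5.18% of all tested genes, and 0 lower. Kit was at 40.6 CPM at day 9. Dazl was at 0.0413 CPM and Ddx4 at 0.0861 CPM at day 9, against 30.2 and 32.1 CPM in ESC. The part of these genes' source cells in the level of Prdm14 was not tested.

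Zfp42, a zinc-finger protein related to Yy1, had 6 and 5 reads in MEF and 2 and 2 at day 3. It was at 0.823 and 0.968 CPM at day 6, 2.70 and 2.53 at day 9, and 289 and 291 in ESC. The day 9 libraries were far nearer to MEF than to ESC, and no groups overlapped. From day 9 to ESC Zfp42 rose by 6.80 ± 0.06 log2 units, or 111-fold (edgeR, adjusted p = 5.1e-18), the widest such step of the 9 factors. The steps to day 6 and to day 9 were 3.90 ± 0.36 and 1.54 ± 0.15 (adjusted p = 4.1e-07 and 1.8e-06). From MEF to day 3 the difference was -1.64 ± 0.55 with an adjusted p of 0.047, called lower on 11 against 4 reads. That call ended with any 1 of the 4 libraries left out (adjusted p from 0.058 to 0.20), under DESeq2 (-1.83, adjusted p = 0.053), in both limma fits, with no low-count filter, and without TMM (-1.44, adjusted p = 0.082). Zfp42 shares 8.52% of its 50-base words with Zfp42-ps1, which is not analysed here.

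Gbx2, a homeobox factor downstream of LIF and Stat3, was at 0.443 and 0.274 CPM in MEF and 0.188 and 0.266 at day 3. It was at 12.2 and 10.9 CPM at day 6, 11.0 and 10.4 at day 9, and 31.0 and 32.4 in ESC. Day 6 and day 9 overlapped, and both lay between day 3 and ESC. Gbx2 rose by 5.66 ± 0.18 to day 6, differed by -0.12 ± 0.09 between day 6 and day 9 (adjusted p = 0.38) and rose by 1.57 ± 0.09 to ESC (edgeR, adjusted p = 3.9e-12 and 7.5e-10). An antisense gene, D130058E05Rik, holds 42.2% of its 50-base words on the other strand and was at 4.29 CPM at day 6, 3.20 at day 9 and 4.10 in ESC. The kit is stranded, but whether the counting used strand is not given in the sources used here, so reads of the pair may not be fully separated. Sall4 also has an antisense partner, Gm14261, which was at most at 0.322 CPM in a group.

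Counted together, from MEF to day 3 edgeR called 1 member higher, Tfcp2l1, and 1 lower, Zfp42, where 14.6% and 14.5% of the 20165 tested genes were called. That is near the background, and the median member difference, 0.08, equalled that of all genes. From day 3 to day 6 all 9 were higher, against 9.26% of tested genes, and 0 were lower, against 10.2%, with a median log2 difference of 5.66 against 0.03, which stays 5.66 with Prdm14 at its lower bound. From day 6 to day 9, 6 of 9 were higher, against 5.18%, with a median of 1.09. From day 9 to ESC, 8 were higher and 1 lower, against 18.6% and 14.3%, with a median of 1.91. Against MEF, all 9 were higher at day 9, where 24.1% of genes were, and all 9 in ESC, where 25.5% were higher and 20.6% lower. Both libraries of the later group lay above both of the earlier one in 43.7, 39.6, 31.8 and 42.7% of tested genes in the 4 steps, and below in 41.6% in the last, so groups that do not overlap are common among all genes. In a limma fit on log2(TPM + 1), which shrinks low levels, 1 of 9 was called from day 6 to day 9, and 7 of 9 in the step to day 6 and at day 9 against MEF, without Prdm14 and Zfp42.

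**Figure D2:**
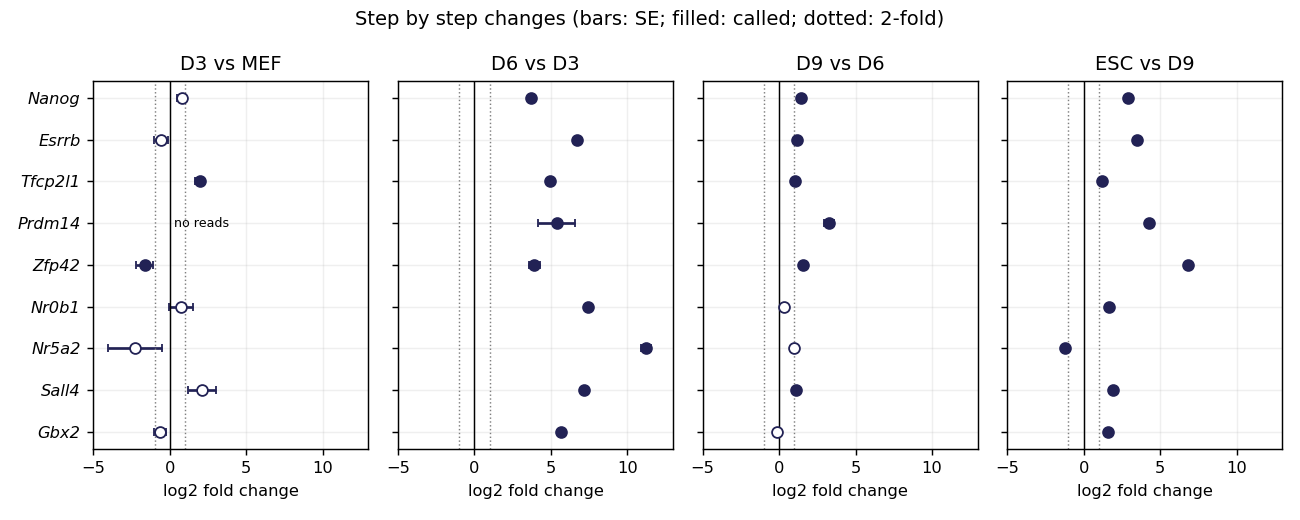
Log2 fold change of each factor in the 4 successive steps, from the edgeR fit, with bars of 1 SE; filled points passed both thresholds, open points did not, and dotted lines mark 2-fold. All 9 points are filled from D3 to D6, where the fitted values of Prdm14 and Nr5a2 depend on a group with 0 or 1 reads, and Prdm14 has no value for D3 against MEF.

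How far each factor had come was read as its mean CPM in percent of the ESC mean (± SD, n = 2). At day 6, Zfp42 was at 0.309 ± 0.0353%, Prdm14 at 0.527 ± 0.307%, Esrrb at 4.00 ± 0.0805% and Nanog at 4.91 ± 0.215%. Sall4 was at 12.5 ± 0.0183%, Tfcp2l1 at 21.4 ± 1.01%, Nr0b1 at 25.5 ± 0.362%, Gbx2 at 36.5 ± 2.73% and Nr5a2 at 120 ± 24.1%. So at day 6 the factors were spread over more than 2 orders of magnitude, with Zfp42 and Prdm14 lowest. At day 9, Zfp42 was at 0.901 ± 0.0425%, Prdm14 at 5.08 ± 0.473%, Esrrb at 9.16 ± 0.333% and Nanog at 13.4 ± 0.268%. Sall4 was at 26.6 ± 0.0811%, Nr0b1 at 32.2 ± 1.36%, Gbx2 at 33.7 ± 1.43%, Tfcp2l1 at 43.7 ± 1.41% and Nr5a2 at 238 ± 4.88%. The order was nearly kept, except that Tfcp2l1 passed Nr0b1 and Gbx2, which were within about 1 SD of each other.

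Among the 1639 genes that were higher in ESC than in MEF and reached 20 CPM in ESC, the median gene was at 74.6% of its ESC level at day 9, with quartiles of 49.9 and 98.2%. All members but Nr5a2 lay below the lower quartile. In MEF the median gene of the set was already at 31.4%, with quartiles of 14.5 and 41.6%, against 0 to 1.13% for the members. The day 9 ranks therefore compare the members mostly with genes that started nearer to their ESC level. Of that set, 2.38% were below Zfp42, 6.28% below Prdm14, 7.75% below Esrrb and 9.46% below Nanog. For Tfcp2l1 the share was 21.2%, and for Nr5a2 it was 96.9%. In the set, 383 genes (23.4%) were above their ESC level at day 9, as Nr5a2 was. On the TPM scale Nr5a2 was at 200% at day 9.

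**Figure D3:**
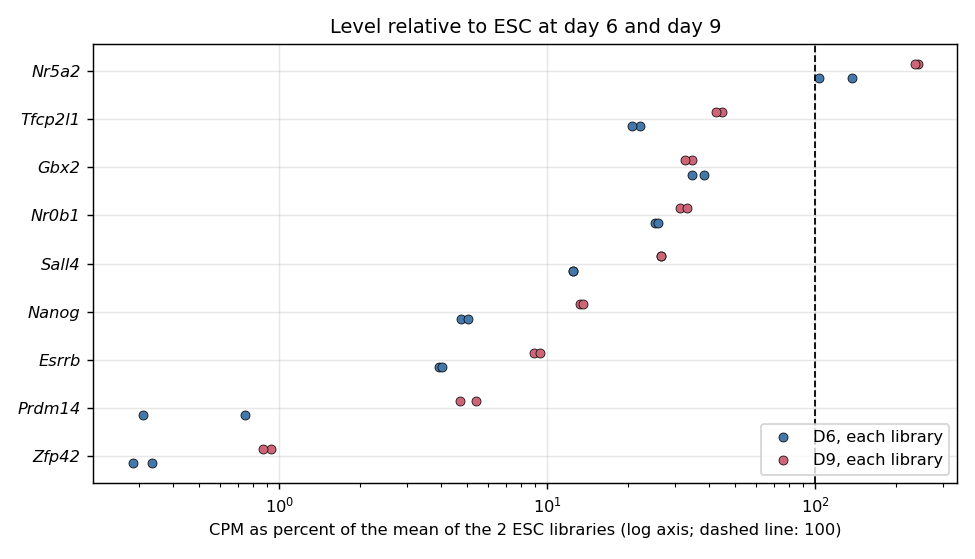
Level of each factor at day 6 (D6) and day 9 (D9) in percent of its mean ESC level, on a log axis, with a point for each library and a dashed line at the ESC level. Nr5a2 lies above the line in both day 9 libraries, with day 6 replicate 2 close to it (103%, but 98.9% without TMM and 91.6% on the TPM scale), and Zfp42 is lowest at day 9, at 0.901%.

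Levels of different genes can be compared only per length. On the TPM scale at day 6 the order was Nr0b1 at 7.38 and Sall4 at about the same level, then Nanog at 6.44 and Nr5a2, then Gbx2, Esrrb, Tfcp2l1, Zfp42 and Prdm14. The libraries of Nr0b1 and Sall4 overlapped, as did those of Nanog and Nr5a2. At day 9 the order was Nanog, Sall4, Nr5a2, Nr0b1, Esrrb, Tfcp2l1, Gbx2, Zfp42 and Prdm14, with no overlap between neighbours. In ESC Nanog was at 138 and 137 TPM and Zfp42 at 91.1 and 89.9 TPM, followed by Esrrb and Sall4, which overlapped, then Nr0b1, Gbx2, Tfcp2l1, Prdm14 and Nr5a2. Zfp42 thus moved from the eighth place at day 9 to the second in ESC, and Nr5a2 from the third place to the last. In TPM, Sall4 was mostly Sall4-006, a transcript of 393 bases. It held 4.61 of 7.37 TPM at day 6, 7.43 of 13.1 at day 9 and 30.8 of 54.3 in ESC. Its share of Sall4 reads was only 6.4, 5.1 and 5.1%. Sall4-001, with most of the reads, was at 1.8, 3.44 and 14.0 TPM, so the places of Sall4 depend on this split.

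**Figure D4:**
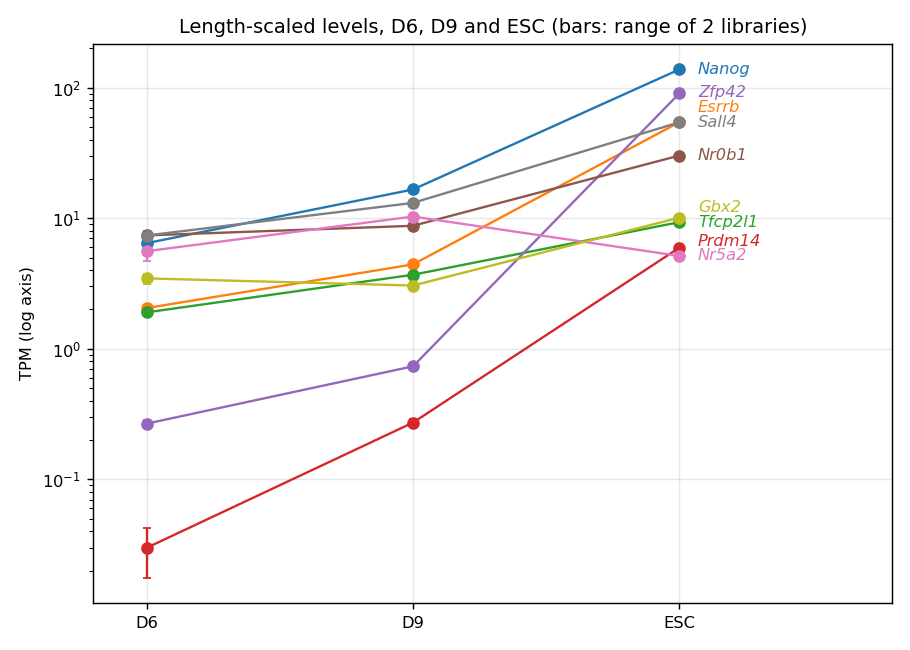
Length-scaled level of each factor in TPM, on a log axis, at day 6, day 9 and in ESC; points are means and bars span the 2 libraries. Between day 9 and ESC the line of Zfp42 is the steepest, and that of Nr5a2 is the only one that falls in this step.

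Members with several transcripts used largely the same ones throughout. Esrrb-002, which starts at the printed Esrrb window, took 98.8% of Esrrb reads at day 6, 94.1% at day 9 and 97.3% in ESC. Nr5a2-001, from the printed Nr5a2 start, took 89.1 ± 3.93% at day 6, 89.8 ± 1.25% at day 9 and 82.9 ± 1.67% in ESC (SD, n = 2). The rest of Nr5a2 was mostly Nr5a2-003, at 8.23, 5.96 and 9.57%, from a start further downstream in the gene. Sall4-001, the longer Sall4 form, took 83.8 ± 6.03%, 79.6 ± 0.559% and 77.3 ± 2.31%, and the shorter Sall4-005 took 6.50 ± 4.48%, 12.6 ± 0.141% and 14.9 ± 1.27%. The share of Nr5a2-001 was lower in ESC than at day 9 by more than the spread between libraries, and that of Nr5a2-004 was higher, at 3.07 ± 0.198% and 5.08 ± 0.41%. Nanog-003 took 54.2 ± 0.933% of Nanog at day 9 and 50.4 ± 0.679% in ESC. With 2 libraries a group the smallest p an exact test can give is 0.333, so none was run. With single reads of 50 bases, the split between transcripts is an estimate.

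Other genes of the network were counted from lists chosen by function. Of 20 other pluripotency genes, 10 rose and 3 fell from MEF to day 3, against 14.6% and 14.5% of all tested genes. From day 3 to day 6, 12 of the 20 were higher, against 9.26%. So the MEF to day 3 step, in which 1 of the 9 factors was called higher, held Fgf4, an autocrine growth factor (94.3 CPM at day 3, 10.78 ± 0.12 log2), L1td1, an RNA-binding protein (409 CPM, 9.48 ± 0.08), and Gdf3, a TGF-beta family ligand (2.62 CPM, from 0). At day 6 the 4 largest rises of this list were Utf1 (9.83 ± 0.27), Eras (7.13 ± 0.25), Tdgf1 (7.01 ± 0.12) and Lin28a (5.31 ± 0.66). From day 9 to ESC 16 of the 20 were higher and 0 lower, against 18.6% and 14.3% of tested genes. Among the 16 were Dnmt3l, a cofactor of de novo DNA methylation, at 8.16 ± 0.09, Dppa2 at 7.32 ± 0.14, Dppa4 at 6.82 ± 0.12 and Dppa5a at 6.47 ± 0.08. In that step Zfp42, at 6.80, lay beside Dppa4.

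Of 14 partner factors, which include the cassette gene Klf4, 5 were higher and 2 lower at day 3, against 14.6% and 14.5% of tested genes. From day 9 to ESC 6 were higher and 3 lower, against 18.6% and 14.3%. Tcl1 (6.50 ± 0.12), Tbx3 (5.71 ± 0.11), Klf2 (3.42 ± 0.06) and Klf5 (3.19 ± 0.07) rose most in that last step, from 0.634, 1.64, 11.4 and 6.67 CPM at day 9. Klf2 and Tbx3 were higher in MEF than at day 9, at 168 and 16.3 CPM, unlike Zfp42. Of 20 cofactors and binding partners of the members, most were not called in a given step: 18 of 20 in the first step, 18 in the second and 15 in the last. Most of all tested genes were not called in these steps either. Tet1, a 5-methylcytosine oxidase that binds Nanog, rose by 2.51 ± 0.07 from day 3 to day 6 and by 2.77 ± 0.05 from day 9 to ESC, and Ncoa3, a coactivator of Esrrb, rose by 1.95 ± 0.04 in the last step (edgeR).

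Paralogs of the members were counted in the same way. Of 17 tested paralogs, 5 were higher and 1 lower from day 3 to day 6, against 9.26% and 10.2% of all tested genes. From day 9 to ESC 3 were higher and 3 lower, near the background of 18.6% and 14.3%. Grhl2, the epithelial relative of Tfcp2l1, was at 16.2 CPM at day 6, 51.9 at day 9 and 13.3 in ESC, so it was highest at day 9. Nr5a1, the close relative of Nr5a2, was at 1.44 CPM in MEF and 0.0860 at day 3, and listed at 0 at day 9. Formative and primed genes mark the states that follow the naive one in the embryo. Of 13 tested, 5 rose and 1 fell in the step to day 6. In the step to ESC 9 of them rose and 1 fell. Of all tested genes, 9.26% and 18.6% rose in these steps, and 10.2% and 14.3% fell. Pou3f1 rose by 5.11 ± 0.08 from day 3 to day 6, to 97.0 CPM, and was at 99.3 CPM at day 9 and 13.2 in ESC, so that it was, like Nr5a2, above its ESC level at day 9. Otx2, by contrast, was at 0 until day 6, at 0.468 CPM at day 9 and at 12.5 CPM in ESC.

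Some members are also known from cells other than naive ones: Esrrb from trophoblast stem cells and Nr5a2 and Sall4 from extraembryonic endoderm. The 8 trophoblast markers summed to 17.2 to 17.3 TPM at day 6, 66.0 to 68.8 TPM at day 9 and 17.7 to 18.4 TPM in ESC, with 4 of 8 at 1 TPM or more in each. From day 6 to day 9, 3 of 7 tested were higher, against 5.18% of all tested genes, and 0 lower. They were the keratin genes Krt8 (149 CPM at day 9) and Krt18, and Elf5, a trophoblast transcription factor. Elf5 was at 1.04 CPM at day 6, 8.82 at day 9 and 0.579 in ESC. Eomes was at 0.188 CPM at day 9, and Cdx2 was at 0 in all day 6 and day 9 libraries. The 8 extraembryonic endoderm markers summed to 7.88 to 8.44 TPM at day 6, 1.76 to 2.94 TPM at day 9 and 5.03 to 5.25 TPM in ESC, with Sox17 at 0.0413 CPM and Gata4 at 0.277 CPM at day 9. The 7 keratinocyte markers summed to 86.7 to 87.2 TPM at day 9 and 26.6 to 27.2 TPM in ESC. At day 9, 4 of the 7 were at 1 TPM or more. From day 6 to day 9, 5 of the 7 were higher, against 5.18% of all tested genes, and 0 lower. Krt5 was only at 0.579 and 0.455 CPM in the day 9 libraries. Krt14 was at 2.03 and 2.25 CPM there, against 1.74 and 2.32 CPM in MEF. Whether such cells were present, and their part in the levels of the members, was not tested.

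The neighbourhood of each gene was read from 21 tested protein-coding genes within 250 kb of a member. From MEF to ESC 12 were higher and 2 lower, against 25.5% and 20.6% of all tested genes. From day 9 to ESC 9 were higher and 3 lower, against 18.6% and 14.3%. Of the 21 neighbours, 10 belong to Nanog, so these totals are not spread evenly over the members. Both tested neighbours of Zfp42, Triml2 at 126 kb and Triml1 at 165 kb, had the same late step: they were at 0.178 and 0.203 CPM at day 9 and 70.2 and 45.3 CPM in ESC, a rise of 8.55 and 7.72 log2 units. Of 10 tested neighbours of Nanog, 6 were higher and 1 lower in that step. Dppa3, at 81.1 kb, was at 0.0294 CPM at day 6, 1.56 at day 9 and 9.26 in ESC, and Gdf3, at 97.4 kb, was at 2.62 CPM at day 3, before Nanog was called higher, and 95.7 in ESC. Slc2a3, a glucose transporter at 94.2 kb, was already at 43.6 CPM in MEF and reached 1050 CPM in ESC, and Rimklb, at 209 kb, was at 3.43 CPM at day 6 and 70.6 CPM in ESC. Apobec1, at 105 kb, had its highest level at day 6, 75.7 CPM, and was at 12.3 CPM in ESC. C3ar1 and Mfap5 also rose from day 9 to ESC. Mfap5 was at 36.3 CPM in MEF, 1.32 at day 9 and 12.9 in ESC, and 11 of the 12 fibroblast or feeder markers rose in the same step; the part of feeder cells in these rises was not tested. Foxj2 was lower in ESC than in MEF (-1.85).

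**Figure D5:**
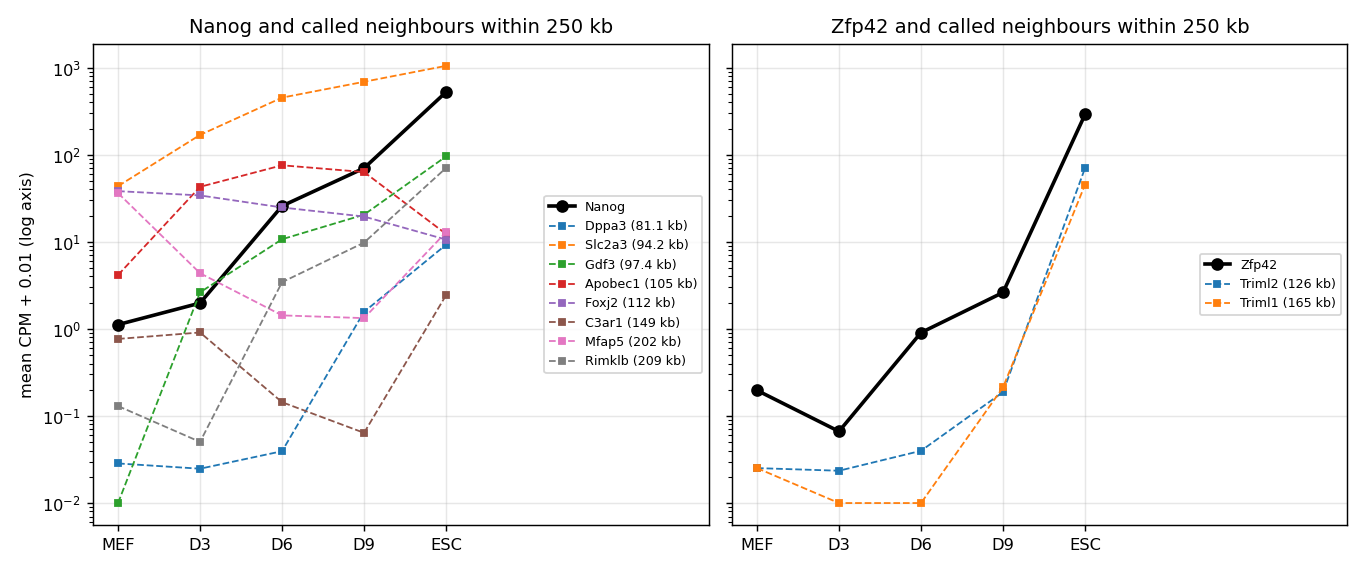
Mean level per group, in CPM plus 0.01 on a log axis, of Nanog and of Zfp42 with their neighbours within 250 kb that were called between ESC and day 9 or MEF and reached 1 CPM in a group, with the distance of each. Triml1 and Triml2 climb with Zfp42 in the last step, whereas the neighbours of Nanog rise in different steps and some fall.

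Next to other members the picture was mixed. Near Sall4, Nfatc2, at 166 kb, was at 72.0 CPM at day 6, 40.8 at day 9 and 5.97 in ESC, a fall in the step in which Sall4 rose. Near Prdm14, Slco5a1, at 135 kb, fell by 1.98 from day 9 to ESC, again opposite to the member. Near Nr0b1, Mageb4, at 113 kb, was at 0 until ESC, where it was at 2.26 CPM. Near Gbx2, Asb18 was higher in ESC than in MEF (1.66). The single tested neighbours of Esrrb and Tfcp2l1, Gpatch2l and Clasp1, were not called in any step, and no protein-coding gene lies within 250 kb of Nr5a2.

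Genes with the most similar course over the 10 libraries were ranked by Pearson correlation of log2 CPM among 9570 protein-coding genes of at least 20 CPM in their highest group. The measure ignores the size of a change and is a description only, since all genes share the libraries. For Nanog they were Nop9 and Bcam (r = 0.9978 and 0.9969), for Esrrb Tdgf1 and Gfm1 (0.9962 and 0.9961), and for Tfcp2l1 Clcn3 and Ptpn6 (0.9989 and 0.9988). Tdgf1, a co-receptor of Nodal, had changes of a size like those of Esrrb, from 0.209 CPM at day 3 to 27.7 at day 6, 99.2 at day 9 and 837 in ESC. For Prdm14 they were Alad and Ppdpf (0.9962 and 0.9957), for Zfp42 Farsa and Ooep (0.9979 and 0.9961), and for Sall4 Nup54 and Supv3l1 (0.9973 and 0.9967). Ooep, an oocyte and early embryo gene, went from 2.73 CPM at day 9 to 90.0 in ESC, as late as Zfp42, whereas Farsa moved only from 67.5 to 99.1 CPM. For Nr0b1 they were Cad and Stk11ip (0.9951 and 0.994), for Gbx2 Pdzd4 and BC027231 (0.9949 and 0.9946), and for Nr5a2 Isyna1 and C77370 (0.9949 and 0.9936). C77370 was, like Nr5a2, higher at day 9 (33.2 CPM) than in ESC (26.2 CPM), with a smaller difference than that of Nr5a2.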

How the data were processed

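Per the labels' protocols, libraries were made from total RNA with a stranded mRNA kit and sequenced as single reads of 50 bases. The labels give 1 batch for the whole set. The authors deposited 1 table per library, in which each transcript has a TPM value and an estimated count, per the file headers. Salmon 0.8.2 and mm10 are named in the submitters' processing notes, and the annotation and strand setting are not given in the sources used here. Effective lengths were the same in all tables.

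Estimated counts were summed to 45706 genes and rounded. Genes were filtered with filterByExpr (minimum count 10, total 15), which left 20165, and scaled with TMM. One quasi-likelihood fit (edgeR 4.0.16 in R 4.3.3), with 1 mean for each group, used the 10 libraries together. A call needed at least a 2-fold change and an adjusted p under 0.05 (Benjamini-Hochberg, over all tested genes). Each SE is the size of the log2 difference divided by the root of its F statistic. The common biological coefficient of variation was 3.75%. Replicate pairs had a chi-square per degree of freedom of 2.91 to 5.42, so each library counted as 1 sample. Percentages of the ESC level are of mean CPM, so a counting error adds to low values. Ratios against 1 or 2 reads have 95% counting intervals, which cover counting error only.

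The members and lists were chosen with earlier results of these data known. Named besides the 9 members were the 2 most similar genes of each, up to 4 called genes per list with the largest change, called neighbours (1 of which is not reported here), and Xist and Ddx3y; further genes of the lists were chosen after their values were seen. Promoter windows are from RefSeq (GRCm38.p6) and were found for 7 of the 9 members. Gene positions are from GENCODE M21 (GRCm38), in which 98.8% of gene IDs were found. Words of 50 bases shared with other transcripts were counted in its transcript sequences.

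Alternatives were DESeq2 1.42.0, no low-count filter, a stricter filter (10 CPM in 2 libraries), separate fits for each pair of groups, scaling by library size instead of TMM, limma 3.58.1 on log2 TPM with 1 or 0.1 added, calls by adjusted p alone, the replicate number as a block, TPM in place of CPM, and leaving out each library. Other software was Python 3.11.15, numpy 2.4.6, pandas 2.3.3 and matplotlib 3.10.9.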

Additional observations from a re-analysis of the deposited data

How the results depend on the processing

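At day 9 against MEF, 9 members were called higher under every alternative run except limma on log2(TPM + 1), with 7. In ESC against MEF the count was 9 under all of them. From day 3 to day 6 it was 9 under most alternatives and 7 in limma on log2(TPM + 1). In that step Prdm14 was also not called in limma on log2(TPM + 0.1), where its difference was 0.37. Nor was it called there in the fit to 2 groups, where its reads did not pass the filter. At day 3 against MEF, where 1 member was called higher, the count was 2 with no low-count filter, with the filter of 10 CPM, without TMM and with no fold change minimum, 0 in both limma fits, and 1 to 3 with 1 library left out. The 1 member called lower there, Zfp42, was 0 under DESeq2, with no low-count filter, in the fit to 2 groups, where its reads did not pass the filter, without TMM and in both limma fits, and 0 to 1 with 1 library left out. From day 6 to day 9, 6 members were called higher, 1 in limma on log2(TPM + 1), 4 in limma on log2(TPM + 0.1) (without Tfcp2l1 and Sall4), 7 with the filter of 10 CPM or without TMM (with Nr5a2), 8 with no fold change minimum, and 5 to 7 with 1 library left out. From day 9 to ESC, the 1 member called lower, Nr5a2, was 0 in both limma fits. For single members at day 3 against MEF, leaving out 1 library gave Esrrb (-0.58 with all) -0.96 to 0.07 and Nr0b1 (0.73 with all) -0.38 to 5.33, and the sign turned for both without MEF replicate 2. The cause was not tested. Of all tested genes, the share called fell in limma on log2(TPM + 1) to 13.2, 6.95, 1.89 and 13.7% in the 4 steps and rose with no fold change minimum to 64.9, 56.5, 34.6 and 69.6%. Leaving out TMM moved the median of all genes from 0.08 to 0.29 at day 3 against MEF and from 0.10 to 0.44 in ESC against MEF, and changed the direction of no member. With the replicate number of the titles as a block, the counts of members called were the same in every comparison (6 higher from day 6 to day 9). Samples sharing a number did not deviate together: the mean correlation over 10 pairs was 9.91e-05, from -0.0205 to 0.0222. Depth limits the members at day 3 and in MEF, where 7 of the 9 had at most 12 reads in a library.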
